A study of Homo sapiens with 6 samples.

Results

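A set of 10 genes that act at entry into mitosis were followed: the Aurora kinases AURKA and AURKB, the activators TPX2 and BORA, the Polo-like kinases PLK1, PLK2 and PLK3, and CDK1 with its B-type cyclins CCNB1 and CCNB2. They were chosen by name, as the rows of the count table whose NCBI gene ID maps to those symbols. The table holds 28395 genes, and 14777 of them were tested. Of these, 14776 had enough counts, all 10 genes among them, and KIFC1, the gene targeted here, was added. The comparison asked what happened to their mRNA 2 days after an siRNA against KIFC1, a minus-end-directed kinesin that gathers surplus centrosomes into a bipolar spindle.

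Entry into mitosis is driven by CDK1 bound to cyclin B. Aurora A, activated by TPX2 on spindle microtubules and by BORA in the cytoplasm, phosphorylates and switches on PLK1, which in turn promotes the activation of CDK1. Aurora B works later, in the chromosomal passenger complex that corrects the attachment of chromosomes to the spindle. PLK2 and PLK3 are related to PLK1 in sequence but are known as genes induced by growth factors and stress rather than by passage through the cell cycle.

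The cells were NCI-H146 (NIH-H146 in the sample titles), an established small-cell lung cancer line. The 3 control libraries are labelled WT and received a scrambled negative control siRNA, and the other 3 are labelled KIFC1 knockdown and received a KIFC1 siRNA. Both groups were harvested on day 2 after a transient transfection, and the labels call the 3 libraries of a group biological replicates. The study used a pair of KIFC1 siRNAs and the library names of this group begin with KD_2, but the labels do not say which siRNA was used, and all values come from 1 cell line.

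Libraries held 15392374 to 17754458 counts, of which 8.34% to 13.1% fell on mitochondrial genes. The targeted gene, KIFC1, was counted 14, 4 and 14 times with control siRNA against 1, 1 and 0 times with KIFC1 siRNA. With the KIFC1 siRNA libraries set to a floor of 3 counts per library, this was at least 3.26-fold lower, from 0.619 ± 0.319 CPM (counts scaled to the library total, SD, n = 3). Differences were tested by the quasi-likelihood method of edgeR and p-values adjusted after Benjamini and Hochberg over the 14777 genes, and KIFC1 had an adjusted p of 0.0739, and 0.00459 with the replicate number as a block. All of its 32-base words also occur on the alternate sequences of GRCh38, against 0% for each of the 10 genes, and how such reads were counted is not given in the sources used here. Of 7 neuroendocrine markers of small-cell lung cancer, 6 had over 3 counts in every library, while NEUROD1 had 0 to 5. Their summed level was 2238 to 2459.5 CPM in control libraries and 2099.6 to 2594 CPM with KIFC1 siRNA, against 11.6 to 16.7 CPM for fibroblast markers and 5.40 to 9.42 CPM for leukocyte markers over all 6 libraries. Among these markers, CHGA, a granule protein, was counted 147, 104 and 142 times with control siRNA and 145, 818 and 482 times with KIFC1 siRNA. NCAM1, an adhesion molecule, had a log2 fold change of -0.42, with an adjusted p in edgeR's test of 0.137, and 0.000646 with the block.

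PLK2 was the one gene of the 10 whose groups did not overlap. It was lower in every KIFC1 siRNA library than in any control library, at a fitted 0.777 of the control level, and passed the threshold once the replicate number was taken into account. CDK1, both B-type cyclins, both Aurora kinases, TPX2, BORA and PLK1 lay within 0.00 to 0.17 of their control level on the log2 scale, and none of them passed. PLK3 was too scarce to be measured as closely. None of the 10 genes had an adjusted p under 0.05 in the comparison of the 2 groups, where 0.697% of all genes tested did. At an unadjusted p under 0.05 there was 1, PLK2, where 9.26% of all genes were. DESeq2 called 0 of the 10 and 1.85% of all genes, and limma-voom 0 of the 10 and 0.656% of all genes. With the block, 1 of the 10 passed, against 5.83% of all genes, so these counts do not set the 10 genes apart from the rest.

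Per length, the kinases and cyclins spanned a wide range. Levels are given here as CPM per kilobase of annotated exon in the control libraries. Length is the union of all annotated exons, 3909 bases for CDK1 and 3605 for TPX2, whichever transcripts the cells make. The order of genes and the ratios between them therefore depend on the annotation, and other lengths were not tried. Comparisons of the groups do not depend on it. CCNB1 and TPX2 headed the order at 123 ± 10.3 and 123 ± 3.22 (SD, n = 3), and their ranges overlapped. CDK1 followed at 67.3 ± 2.29, PLK1 at 54.5 ± 4.30 and AURKB at 41.8 ± 4.25. Below these came AURKA at 32.5 ± 1.51, CCNB2 at 23.4 ± 1.97, PLK2 at 9.06 ± 0.471, BORA at 7.16 ± 0.119 and PLK3 at 1.64 ± 0.0256. CCNB1 and TPX2 were the only neighbours in this order whose control ranges overlapped, and from CCNB1 to PLK3 the level fell 75.1-fold. With KIFC1 siRNA the order was kept except that BORA, at 7.45 ± 0.276, came above PLK2, at 7.04 ± 0.748, with ranges that overlapped.

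**Figure D1:**
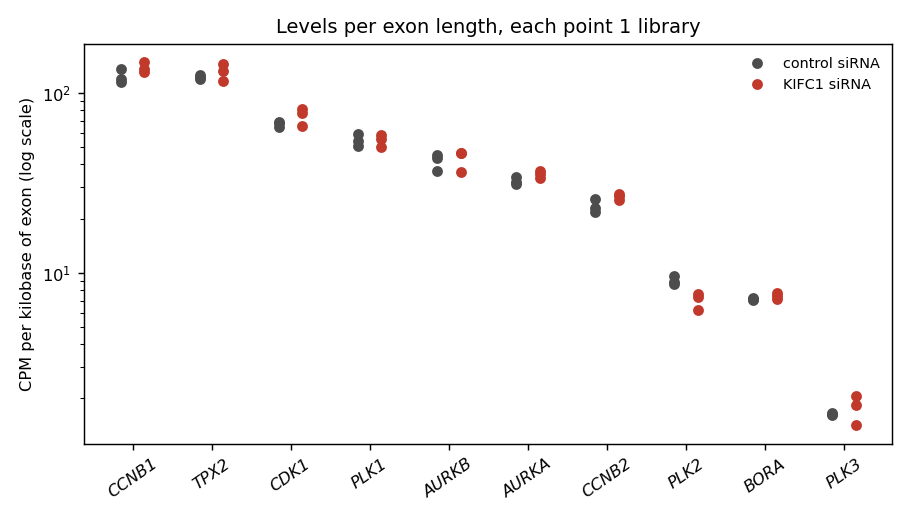
CPM per kilobase of annotated exon (log scale) for each gene, 1 point per library, control siRNA in grey and KIFC1 siRNA in red, ordered by control mean. CCNB1 and TPX2 sit at 123 and PLK3 at 1.64 in control libraries, and PLK2 is the gene whose 2 groups of points do not overlap.

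CDK1 (NCBI gene ID 983, chr10:60778331-60794852) is the kinase that drives the cell into mitosis. Gene coordinates are those of RefSeq on GRCh38. In control libraries 1, 2 and 3 it was at 267, 269 and 253 CPM, and with KIFC1 siRNA at 303, 256 and 319 CPM. Replicate 2 with KIFC1 siRNA lay inside the control range while the other two lay above it. The log2 fold change, KIFC1 siRNA over control, was 0.15 ± 0.11 (SE), with a 95% interval from -0.08 to 0.39 and an adjusted p of 0.767 in edgeR's quasi-likelihood test.

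CCNB1 (NCBI gene ID 891, chr5:69167150-69178245) encodes cyclin B1, the main partner of CDK1. It was at 328, 292 and 280.2 CPM in the control libraries and at 360.4, 319.7 and 329 CPM with KIFC1 siRNA. Within each replicate number the KIFC1 siRNA library was the higher, but control replicate 1 reached into the range of the other group. Its log2 fold change was 0.17 ± 0.10 (SE, 95% interval -0.06 to 0.39), with an adjusted p of 0.719 in edgeR's test. With the block the 95% interval was 0.01 to 0.32, with an unadjusted p of 0.0339 and an adjusted p of 0.229 in edgeR's test, which did not pass.

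CCNB2 (NCBI gene ID 9133, chr15:59105146-59125045) encodes cyclin B2, the Golgi-associated B-type cyclin. Control libraries had 70.5, 62.9 and 60.1 CPM and KIFC1 siRNA libraries 75.2, 69.8 and 73.1 CPM. As for CCNB1, every pair with the same number was higher with KIFC1 siRNA and control replicate 1 overlapped the other group. The log2 fold change was 0.17 ± 0.11 (SE, 95% interval -0.06 to 0.41, edgeR adjusted p = 0.712).

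The proportion of the B-type cyclins to each other and to CDK1 was taken per length. CCNB1 stood at 5.27, 5.26 and 5.28 times CCNB2 in the control libraries and at 5.42, 5.18 and 5.10 times with KIFC1 siRNA. The KIFC1 siRNA libraries lay on both sides of the narrow control range, 1 above and 2 below it, and an exact two-sided permutation test, which cannot go below 0.1 here, gave p = 0.7. The ratio of CCNB1 to CDK1 per length also overlapped between groups, at 1.97, 1.74 and 1.78 against 1.91, 2.00 and 1.66 (exact permutation p = 0.9).

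AURKA (NCBI gene ID 6790, chr20:56369390-56392215) encodes Aurora A, the centrosomal and spindle-pole kinase. It was at 93.9, 99.9 and 91.3 CPM with control siRNA and at 98.9, 103 and 107 CPM with KIFC1 siRNA. It was higher with KIFC1 siRNA within each number, and the groups overlapped by 1 library on each side. The log2 fold change was 0.12 ± 0.10 (SE, 95% interval -0.10 to 0.34, edgeR adjusted p = 0.814).

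TPX2 (NCBI gene ID 22974, chr20:31739290-31801800) encodes the spindle protein that activates Aurora A. Control libraries had 456, 442 and 432 CPM, and KIFC1 siRNA libraries 479.7, 419 and 521 CPM. Replicate 2 with KIFC1 siRNA was the lowest of the 6 libraries and replicate 3 the highest. The log2 fold change was 0.10 ± 0.11 (SE, 95% interval -0.14 to 0.33, edgeR adjusted p = 0.880). The ratio of TPX2 to AURKA per length was 3.94, 3.59 and 3.85 in control libraries and 3.94, 3.29 and 3.95 with KIFC1 siRNA, which overlapped (exact permutation p = 0.9).

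AURKB (NCBI gene ID 9212, chr17:8204731-8210575) encodes Aurora B, the kinase of the chromosomal passenger complex. It was at 101, 96.7 and 82.9 CPM with control siRNA and at 104, 104 and 80.9 CPM with KIFC1 siRNA. Replicate 3 was the lowest in both groups. Its log2 fold change was 0.04 ± 0.13 (SE, 95% interval -0.24 to 0.33, edgeR adjusted p = 0.964).

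PLK1 (NCBI gene ID 5347, chr16:23678889-23690367) encodes the Polo-like kinase that acts from mitotic entry to cytokinesis. It stood at 280.7, 258 and 239.8 CPM in the control libraries and at 277, 264 and 239 CPM with KIFC1 siRNA. Libraries of the same number lay next to each other, replicate 1 highest and replicate 3 lowest in both groups. The log2 fold change was 0.0022 ± 0.11 (SE, 95% interval -0.23 to 0.23, edgeR adjusted p = 0.999). That interval does not reach a change of 1.5-fold in either direction.

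BORA (NCBI gene ID 79866, chr13:72727923-72756196) encodes the cofactor through which Aurora A reaches PLK1. Its levels were 23.2, 22.4 and 22.9 CPM with control siRNA and 23.8, 22.9 and 24.6 CPM with KIFC1 siRNA, which overlapped. The log2 fold change was 0.06 ± 0.11 (SE, 95% interval -0.19 to 0.31, edgeR adjusted p = 0.938). In GENCODE 44, 37% of the exon length of BORA is shared with DIS3 on the opposite strand, and the strand setting of the counting is not given in the sources used here, so reads of the pair may not be told apart. PLK1 shares 11.6% of its exon length with an opposite-strand gene that has only an Ensembl ID as its name. In the same way PLK1 shares 1.22% with ERN2, and PLK3 2.95% with DYNLT4.

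**Figure D2:**
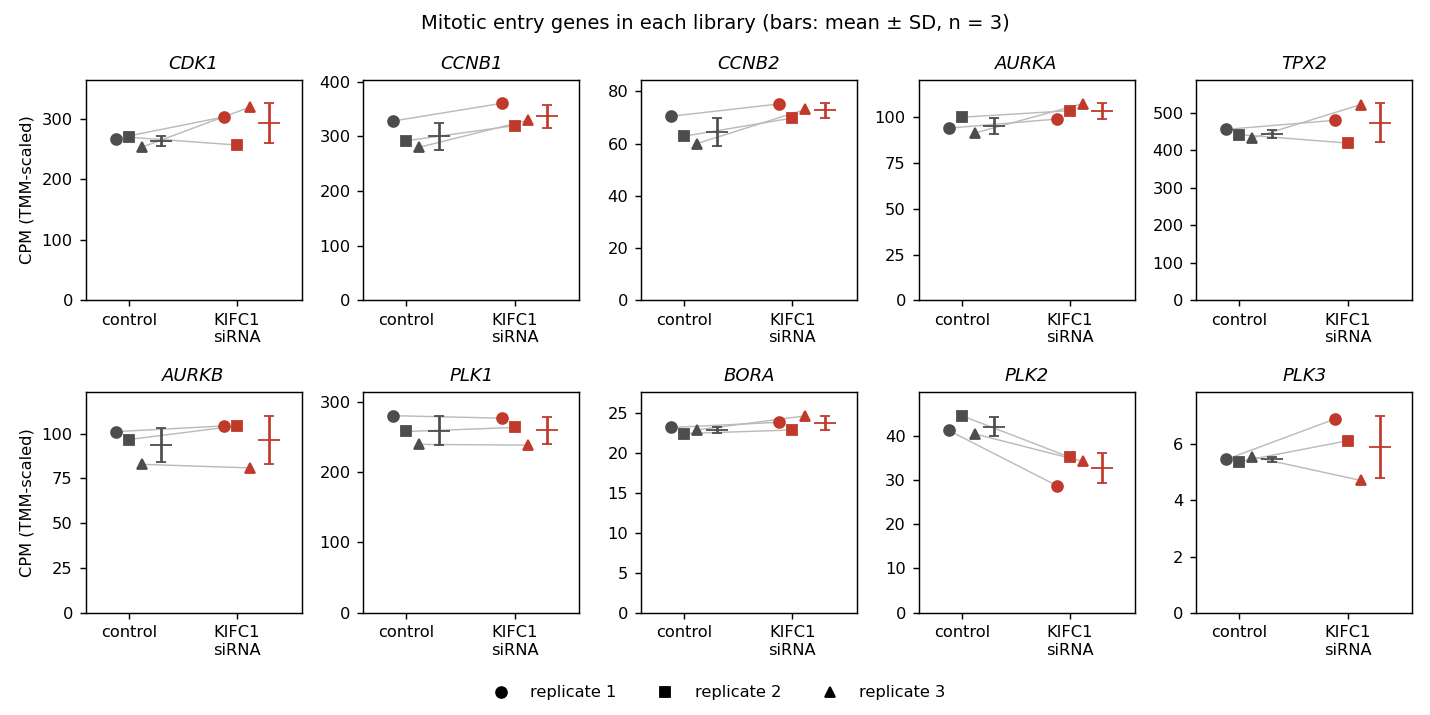
TMM-scaled CPM of each of the 10 genes in every library (axes start at 0, symbols mark the replicate number, grey lines join libraries with the same number, bars are mean ± SD, n = 3). PLK2 is lower in all 3 KIFC1 siRNA libraries, from 28.7 to 35.2 against 40.5 to 44.6 CPM, while the groups of the other genes overlap.

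PLK2 (NCBI gene ID 10769, chr5:58453982-58460086) encodes a Polo-like kinase of centriole duplication and of neurons. Its reads numbered 687, 712 and 743 with control siRNA and 450, 534 and 559 with KIFC1 siRNA, or 41.2, 44.6 and 40.5 CPM against 28.7, 35.2 and 34.2 CPM. All 3 KIFC1 siRNA libraries lay below all 3 control libraries, and means were 42.1 ± 2.19 and 32.7 ± 3.48 CPM (SD, n = 3). Groups without overlap and lower with KIFC1 siRNA were found for 7.52% of all genes tested, and higher for 7.99%.

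The fold change of PLK2 was 0.777 (95% interval 0.650 to 0.930), or -0.36 ± 0.12 (SE) on the log2 scale. In edgeR's quasi-likelihood test of the 2 groups the unadjusted p was 0.00983 and the adjusted p 0.283, which did not pass. Of all genes tested, 4.55% were lower at an unadjusted p under 0.05, and 6.15% had a lower log2 fold change than PLK2. In the fit with a replicate block it was -0.37 ± 0.10 (SE) on the log2 scale, with an adjusted p of 0.0236, which passed. An exact two-sided permutation test over the libraries gave p = 0.1, the smallest that 3 against 3 allows. The study's cutoffs of an unadjusted p under 0.05 and a fold over 1.5 were met by 2.53% of all genes and by none of the 10.

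Library by library, the log2 ratio of PLK2 within replicate numbers 1, 2 and 3 was -0.52, -0.34 and -0.24. Leaving out control replicate 2 gave an unadjusted p of 0.0528 in edgeR's test and leaving out KIFC1 siRNA replicate 1 gave 0.0606, both above 0.05. The log2 fold changes were then -0.32 and -0.28. With each of the other libraries left out, the unadjusted p in edgeR's test ran from 0.00342 to 0.0257. A fit on fewer libraries also has less power, so reliance of the unadjusted call on certain libraries cannot be told apart from that. In bulk RNA, fewer cells that express a gene and less RNA of it per cell cannot be told apart.

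PLK3 (NCBI gene ID 1263, chr1:44800377-44805990) encodes a stress-responsive Polo-like kinase. Counted 91, 86 and 102 times in control libraries against 108, 93 and 77 times after KIFC1 siRNA, it was the scarcest of the 10. Its levels were 5.46, 5.38 and 5.55 CPM against 6.90, 6.13 and 4.71 CPM. The KIFC1 siRNA libraries spread to both sides of the control ones, and the log2 fold change of 0.11 ± 0.20 (SE, 95% interval -0.31 to 0.54, edgeR adjusted p = 0.929) leaves changes up to 1.45-fold within the interval.

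Ratios between the kinases were taken per length. PLK1 was at 6.65, 5.65 and 5.79 times PLK2 in the control libraries and at 9.42, 7.33 and 6.81 times with KIFC1 siRNA. The groups did not overlap, and since PLK1 itself lay near its control level this ratio restates the difference in PLK2. The ratio of AURKA to AURKB per length overlapped between groups (0.711, 0.791 and 0.843 against 0.726, 0.759 and 1.02), and so did that of BORA to PLK1 (0.123, 0.130 and 0.142 against 0.128, 0.129 and 0.154).

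**Figure D3:**
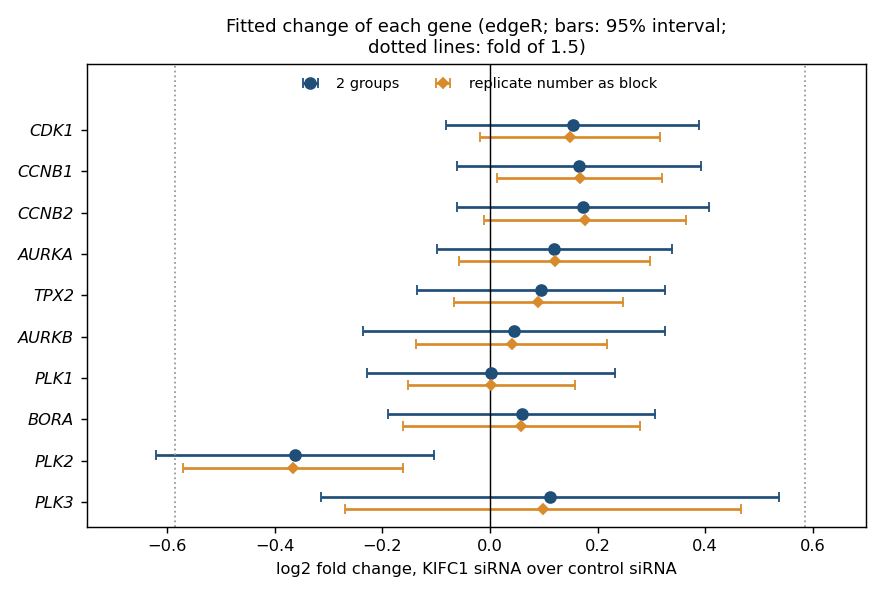
Log2 fold change, KIFC1 siRNA over control siRNA, from edgeR with its 95% interval, for the comparison of 2 groups (blue) and with the replicate number as a block (orange). PLK2 lies at -0.36 and -0.37 with both intervals below 0, and with the block the interval of CCNB1, from 0.01 to 0.32, lies above 0, while the other intervals cross 0.

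Ratios within replicate numbers were also taken for the other genes. Of the 10, 4, AURKA, BORA, CCNB1 and CCNB2, were higher with KIFC1 siRNA in all 3 numbers, where 19.5% of all genes tested were. PLK2 alone was lower in all 3, where 19.4% of all genes were. CDK1 and TPX2 were lower in number 2, at log2 ratios of -0.07 and -0.08, and higher in numbers 1 and 3. In number 1, 8 of the 10 genes were higher, in number 2, 7, and in number 3, 6. Of all genes tested, 50.7%, 49.9% and 49.5% were higher in numbers 1, 2 and 3.

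**Figure D4:**
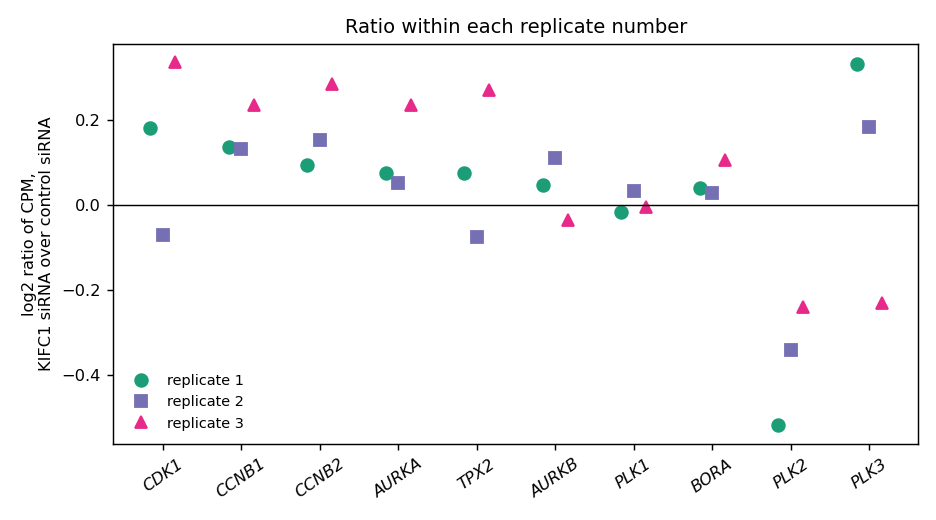
Log2 ratio of CPM, KIFC1 siRNA over control siRNA, within each replicate number, 1 point per gene and number. PLK2 is the gene below 0 in all 3 numbers, from -0.52 to -0.24, while PLK3 runs from 0.33 to -0.23.

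The replicate number itself was visible in some genes. EGR1, an immediate early transcription factor, was counted 283, 59 and 57 times with control siRNA and 260, 60 and 54 times with KIFC1 siRNA. Replicate 1 of both groups was thus the high one, whichever siRNA was used. AURKB and PLK1 shared such a pattern in a weaker form, with replicate 3 lowest in both groups.

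Of the 10 genes, 9 had a log2 fold change above 0 and PLK2 below it, with a median of 0.10, and 8 were above 0 with DESeq2's size factors or library size only, where PLK1 turned negative. Over all genes tested the median was 0.01, with 52.1% above 0 and quartiles at -0.12 and 0.13. For the 8 genes other than PLK2 and PLK3, the 95% intervals ran from -0.24 at the lowest to 0.41 at the highest, so the largest rise still inside an interval was 1.33-fold.

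Promoters were searched for a pair of elements known from genes that peak in late cell cycle, the CCAAT box bound by NF-Y and the cell cycle homology region (CHR) bound by DREAM and MuvB complexes. Promoters of 250 bases before to 50 after the start were taken from RefSeq (GRCh38) and 8 of the 10 genes were in that table. AURKA and TPX2 were not in it. CCAAT was searched on both strands, and the CHR as TTTGAA on both strands or TTTAAA. Both were found in 5 of the 8 genes (BORA, PLK1, CDK1, CCNB1 and CCNB2), against 9.27% of 35116 promoters. The first count is per gene and the share is per promoter. CDK1 and AURKB had 2 promoters each, which were alike in which of the elements they held. AURKB held CCAAT alone and PLK2 and PLK3 held neither. CCAAT was in 34.6% and the CHR in 24.0% of all promoters. The 135 bases that end 9 bases into the transcript are shown for a pair of cyclins and a pair of Polo kinases, to set promoters with both elements beside one with neither, with CCAAT (or its reverse complement ATTGG) and CHR matches in capitals. They lie at chr16:23678764-23678898 (PLK1, plus strand), chr5:69167025-69167159 (CCNB1, plus), chr15:59105021-59105155 (CCNB2, plus) and chr5:58460077-58460211 (PLK2, minus).
PLK1: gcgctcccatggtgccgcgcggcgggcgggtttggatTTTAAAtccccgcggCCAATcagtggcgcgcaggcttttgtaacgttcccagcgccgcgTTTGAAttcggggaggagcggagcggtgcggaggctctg
CCNB1: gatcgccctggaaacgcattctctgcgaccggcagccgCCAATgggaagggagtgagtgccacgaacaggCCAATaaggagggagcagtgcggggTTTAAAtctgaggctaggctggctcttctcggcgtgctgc
CCNB2: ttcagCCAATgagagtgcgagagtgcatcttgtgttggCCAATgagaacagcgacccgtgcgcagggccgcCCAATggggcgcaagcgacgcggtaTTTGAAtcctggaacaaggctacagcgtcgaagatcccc
PLK2: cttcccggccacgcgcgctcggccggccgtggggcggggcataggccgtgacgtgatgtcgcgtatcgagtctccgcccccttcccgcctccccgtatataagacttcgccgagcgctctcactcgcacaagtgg
The CHR nearest the start began 29 bases before it in PLK1 and CCNB2 and 30 bases before it in CCNB1. CCNB1 had CCAAT at 87 and 55 bases before the start and CCNB2 at 120, 87 and 54 within the bases shown. A match is a description of letters, and no promoter activity was measured.

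The transcripts were also searched for a short word. The 7-base word GAGATCT had been found by an earlier scan of 3′ UTRs in these same libraries, so its relation to the fold changes is not independent of them. Among 12973 tested genes with a 3′ UTR of at least 50 bases, 8.96% held it, and their median log2 fold change was -0.11, against 0.02 for genes without it. Of the 10 genes, PLK2 alone held it in its 3′ UTR, at position 45 of 601 bases. Over the whole mRNA PLK2 held 4 copies, PLK1 and PLK3 1 each, and the other 7 genes none, where 0.168% of 13133 genes held 4 or more. KIFC1 itself held 1 copy, in its coding sequence. Of the sites, 4 are shown to set the letters around the word in PLK2 and PLK1 beside those in KIFC1, with the word in capitals, from GENCODE 44 transcripts on GRCh38: KIFC1 at chr6:33405468-33405492 (plus strand), the PLK2 3′ UTR at chr5:58454528-58454552 (minus), PLK2 coding at chr5:58458403-58458427 (minus) and PLK1 coding at chr16:23679123-23679147 (plus).
KIFC1: tagcaagctacgtaGAGATCTacaa
PLK2 3′ UTR: ctcttttccactgtGAGATCTacag
PLK2 coding: agaaatcttgcacaGAGATCTcaaa
PLK1 coding: ttgccaagtgcttcGAGATCTcgga
The unbroken run shared with KIFC1 was 10 bases in the PLK2 3′ UTR, 8 in the coding site of PLK2 shown, and 7, the word alone, in PLK1, in PLK3 and in the other 2 coding sites of PLK2. Counted over all 25 bases, 15 matched KIFC1 in PLK1, 13 in the PLK2 3′ UTR, in PLK3 and in 2 of the coding sites of PLK2, and 7 in the remaining one. The part of these sites in the level of PLK2 was not tested.

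Around the 10 genes, none of 126 genes tested in 7 further lists had an adjusted p under 0.05 in edgeR's comparison of 2 groups, while 10 had an unadjusted p under 0.05 (7.94%, against 9.26% of all genes tested). DESeq2 called 2 of them, BOD1 and CCNA1, and limma-voom 1, KIFC1. With the block, 6 did (4.76%, against 5.83% of all genes). KIFC1, the target of the siRNA, was counted both among the 10 and among the 6. Values are given for the genes at an unadjusted p under 0.05 or with the smallest p of their list. Among these, the groups did not overlap for CDC25B, BOD1, KIF20A, PRC1, BTRC, CCNA1, CCND2, CDKN1A, CCN2, DUSP5 and the targeted KIFC1. Over all genes tested, 7.52% were without overlap and lower, and 7.99% without overlap and higher. The genes were picked by their p, so the lack of overlap is not a separate result. The lists hold regulators and relatives of the kinases and cyclins and were chosen with earlier results known.

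Regulators of CDK1 activity, among them WEE1, the CDC25 phosphatases and FOXM1, showed 10 genes above 0 and 6 below of 16, with a median log2 fold change of 0.08. The smallest p was that of CDC25B, a phosphatase that activates CDK1, at 204.9 ± 13.8 CPM in control libraries and 178 ± 12.1 with KIFC1 siRNA (SD, n = 3). Its log2 fold change was -0.20 ± 0.10 (SE), with an adjusted p of 0.607 in edgeR's test.

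Partners of the Aurora kinases had 4 genes above 0 and 7 below of 11 tested, with a median of -0.11. BOD1, which protects chromosome attachments at the kinetochore, was at 37.9, 37.2 and 33.1 CPM in control libraries and at 49.4, 55.5 and 45.6 CPM with KIFC1 siRNA. The groups did not overlap, the log2 fold change was 0.47 ± 0.12 (SE), and edgeR's adjusted p was 0.117, and 0.00216 with the block.

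Among partners and relatives of the Polo kinases, 9 of 13 were above 0, with a median of 0.07. KIF20A, a kinesin that recruits PLK1 to the central spindle, went from 57.7 ± 2.16 to 68.6 ± 5.08 CPM (log2 fold change 0.25 ± 0.11, SE, edgeR adjusted p = 0.495). PRC1, the central spindle bundler that PLK1 phosphorylates, went from 143 ± 1.53 to 123 ± 7.25 CPM (log2 fold change -0.22 ± 0.10, SE, edgeR adjusted p = 0.526). PLK4, the kinase of centriole duplication, had a log2 fold change of 0.04 ± 0.15 (SE).

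The APC/C, the ubiquitin ligase that destroys the B-type cyclins, was listed with its regulators and with BTRC and FBXW11, which are not part of it. The list had 11 genes above 0 and 10 below of 21, with a median of 0.01. BTRC, the adaptor that targets BORA for destruction, went from 60.2 ± 3.31 to 48.7 ± 5.49 CPM without overlap (log2 fold change -0.30 ± 0.12, SE, edgeR adjusted p = 0.405, and 0.0530 with the block).

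Of the other cyclins, CDKs and CDK inhibitors, 9 of 16 tested were above 0, with a median of 0.02. CCNA1, the cyclin A of germ cells, was at 104, 116 and 105 CPM in control libraries and at 140.0, 165 and 139.6 CPM with KIFC1 siRNA. The groups did not overlap, with a log2 fold change of 0.45 ± 0.11 (SE) and an adjusted p in edgeR's test of 0.105, and 0.000646 with the block. CCND2, a G1 cyclin, was counted 3, 11 and 3 times with control siRNA and 15, 27 and 12 times with KIFC1 siRNA. Its log2 fold change was 1.75 ± 0.55 (SE), with an adjusted p in edgeR's test of 0.258, and 0.0114 with the block. CDKN1A, the p53-induced CDK inhibitor, had a log2 fold change of -0.25 ± 0.11 (SE, edgeR adjusted p = 0.528).

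Late cell cycle genes of the kinetochore, spindle and chromosomes had 13 above 0 and 15 below of 28, with a median of -0.02, the targeted KIFC1 among them. MKI67, the proliferation antigen, was at 465, 412 and 557 CPM in control libraries and at 328, 319 and 515 CPM with KIFC1 siRNA, lower within each number though the groups overlapped. Its log2 fold change was -0.30 ± 0.18 (SE), with an adjusted p in edgeR's test of 0.689, and 0.00914 with the block.

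Immediate early and stress genes, the class to which PLK2 and PLK3 belong by their regulation, had 18 genes above 0 and 3 below of 21 tested, with a median of 0.19. CCN2, a matricellular protein induced by growth factors, was at 8.16, 6.89 and 6.86 CPM in control libraries and at 4.34, 5.20 and 4.35 CPM with KIFC1 siRNA. As for PLK2, the groups did not overlap, which was so in the lower direction for 7.52% of all genes tested. Like PLK2, CCN2 passed with the block alone (log2 fold change -0.66 ± 0.18, SE, edgeR adjusted p = 0.181, and 0.0222 with the block). DUSP5, a phosphatase of ERK, had a log2 fold change of 0.99 ± 0.43 (SE, edgeR adjusted p = 0.498) from 0.418 ± 0.181 CPM in control libraries.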

How the data were processed

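RNA of NCI-H146 cells was sequenced from 3 control siRNA and 3 KIFC1 siRNA libraries. Per the submitters' processing notes and the study's methods, the authors aligned reads to GRCh38 with HISAT2 2.2.1 and counted them per gene with featureCounts 2.0.8. They deposited raw counts per NCBI gene ID, and annotation, strand setting and treatment of multimapping reads are not given in the sources used here. The test was edgeR 4.0.16 (R 4.3.3) on TMM-scaled counts: filterByExpr plus KIFC1, a robust quasi-likelihood fit, and adjustment after Benjamini and Hochberg across 14777 genes at a threshold of 0.05. CPM are scaled by TMM, except for KIFC1 and the summed marker levels, whose CPM use library totals. The SE of a log2 fold change is its size over the square root of F. Exon lengths were the GENCODE 44 exon union.

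Replicate numbers are shared by the labels of both groups. After removal of group means, same-numbered libraries correlated at 0.484, 0.414 and 0.491 across 11758 genes and others at -0.457 to 0.0234, so the numbers pair the libraries as a hint from the data. The block was an alternative, beside DESeq2 1.42.0, limma-voom (limma 3.58.1), other scalings and filters, each library left out and, chosen after seeing the data, mitochondrial genes left out. Genes and lists were chosen with earlier results of these data known. Named genes were the 10, KIFC1, list genes at an unadjusted p under 0.05 or with the smallest p, and the 5 genes most like the mean profile. MKI67 and PLK4 were named after their values were seen, as was EGR1. When tested on simulated data with 200 altered genes among 14777, 80% were called at a log2 change of 1 and 22.5% at 0.5. Nothing says that the libraries came from separate cultures beyond their label, so p-values measure the spread between these samples. Floors cover counting error only. A neuroendocrine marker of the list is not reported here.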

Additional observations from a re-analysis of the deposited data

How the results depend on the processing

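PLK2 stayed below 0 under all 14 alternatives, from -0.42 to -0.28, and its adjusted p ran from 0.0236 to 0.824. It passed with the replicate block alone, which moved the number of the 10 genes called from 0 to 1 and of all genes called from 103 to 861. DESeq2 called 274 genes and no filter on low counts 265, and leaving out 1 library gave 24 (without control siRNA replicate 3) to 468 (without KIFC1 siRNA replicate 3), of which 0 were among the 10. The other 9 genes kept an adjusted p of at least 0.229 throughout. PLK1 changed sign with DESeq2 (-0.0024), DESeq2's size factors (-0.0024), library size only (-0.0087) and no filter (-0.0066), and ran from -0.052 to 0.063 with 1 library left out. With 1 library left out AURKB ran from -0.036 to 0.16 and PLK3 from -0.014 to 0.25. KIFC1 passed without the filter (adjusted p = 0.00412), with limma-voom (0.0471) and with the block (0.00459), and had no value with at least 10 counts in every library. The cause of these shifts was not tested. The block changed no other call among the 10 genes. Depth limits PLK3 most, at 77 to 108 counts.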

Other observations

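The 8 genes other than PLK2 and PLK3 were averaged into 1 profile of centred log2 CPM over the 6 libraries, which ran from -0.13 in control replicate 3 to 0.10 in KIFC1 siRNA replicate 1. Among 11748 other genes the closest in Pearson correlation were ACP1 (0.997), COMMD8 (0.996), VAPA (0.996), PPA1 (0.994) and PSMB2 (0.994). All values come from the same 6 libraries and share their scaling, so this is a description only. The lowest correlation of one of the 8 genes with their own mean was 0.428.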
